A study of Mus musculus with 8 samples.

Results

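Transcripts of 8 genes whose proteins act in the fusion of myoblasts into multinucleated muscle fibres were followed in cultured mouse satellite cells, which are the resident stem cells of skeletal muscle. The 8 genes were chosen by name, and all 8 were found among the 39017 rows of the count table. They are Tmem8c (myomaker, now Mymk), Gm7325 (myomixer, now Mymx), Jam2, Jam3, Myof, Adgrb1 and Adgrb3 (listed by the authors under the older names Bai1 and Bai3) and Stab2. Adgrb1 and Adgrb3 were matched by their Ensembl identifiers, and the others by symbol.

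The cells came from diaphragm and abdominal muscle of adult Pax3GFP/+ mice, whose genotype, a GFP reporter on 1 copy of Pax3, is shared by every library. They were seeded at 7500 cells per 35 mm plate and cultured for 4 days either in 10 µM sal003, a small molecule that keeps the translation factor eIF2α phosphorylated by inhibiting its phosphatase, or in the vehicle DMSO, with 4 libraries per group. The treatment protocol gives the dose as 10 mM, whereas the design text and the sample attributes give 10 µM. Separate animals or cultures are not named in the labels, and the spread behind each p-value is only that between these libraries, which may be technical.

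Myoblasts fuse after they leave the cell cycle and start to differentiate. They first recognise and adhere to each other, then rebuild the actin cortex at the contact through small GTPases, and finally merge their membranes. Myomaker, a protein that spans the membrane several times and is needed on both cells, starts the mixing of the outer lipid layers, and myomixer, a micropeptide, completes the opening of the pore. Both genes are switched on by the myogenic transcription factors MyoD and myogenin.

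Total counts lay between 32753929 and 40234107 per library. DMSO replicate 2 stood apart, with 14437 genes detected against 16561 to 18076 in the other 7 libraries, and a Spearman correlation across tested genes of at most 0.949 with another DMSO library. All 10 markers of myogenic cells had enough counts to be tested. They summed to 8220 to 9280 CPM (counts scaled to a common library size) in DMSO and 4180 to 4620 CPM in sal003. Called lower were 5, among them Des (means of 2940 and 1170 CPM) and Myog (2630 and 870 CPM). Pax7 was the 1 called higher (72.1 and 97.2 CPM), and Myod1 (896 and 892 CPM) was not called. Of 10 immune markers, 5 (Ptprc, Adgre1, Lyz2, C1qb and Cd3e) were at 0 in all 8 libraries, 3 were tested and none passed. Their sum was 2.36 to 5.82 CPM in DMSO and 2.42 to 4.68 CPM in sal003. Itgam, which had 239 counts in DMSO and 22 in sal003, did not overlap between the groups (edgeR adjusted p = 0.0857). It had 0, 12, 10 and 0 counts in sal003 replicates 1 to 4. Itgam could thus pass the filter on low counts only through DMSO, which favoured a difference in advance. Of 10 fibro-adipogenic markers Dcn, Lum and Dpt were at 0 in all libraries, and the sum was 121 to 164 CPM in DMSO and 81.6 to 115 CPM in sal003. Most of it was Gsn, gelsolin, the 1 called lower of 4 tested (137 ± 19.8 and 92.1 ± 15.8 CPM, SD, n = 4; edgeR adjusted p = 0.00458). The summed level of 10 smooth muscle and pericyte markers was 1890 to 2070 CPM in DMSO and 604 to 797 CPM in sal003, and Cnn1 was at 0 in all libraries. Of the 7 tested, 5 were lower and 0 higher. Their means in DMSO and sal003 were 1550 and 470 CPM for Acta2, 197 and 149 for Cspg4 and 83.9 and 44.5 for Notch3. They were 77.2 and 15.2 for Abcc9 and 65.7 and 12.1 for Tagln. Pdgfrb (6.74 and 3.57) and Rgs5 (0.703 and 0.256) did not pass. Myh11 (0.804 and 0.552) and Kcnj8 (0 and 0.0593) had too few counts to be tested. The part of such cells in the results was not tested.

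Of the 8 fusion genes, 4 were lower in sal003, 0 were higher, 2 did not pass the test and 2 had too few counts to be tested. One of the 4, Stab2, passed the filter on low counts only through DMSO, and without it 3 were lower. Over all 15816 tested genes 12.2% were called lower and 10.6% higher (edgeR, adjusted p below 0.05), together 22.7%. The 2 groups of libraries did not overlap for these 4 genes (3 without Stab2), all with sal003 below, where 13.7% of all tested genes were placed that way and 26.8% did not overlap in either direction. The pair that merges the membranes, Tmem8c and Gm7325, was about 5-fold lower in sal003, the adhesion molecule Jam3 was 1.97-fold lower, and Stab2 went from low counts to almost none. No change was called for Jam2 or Myof. Levels are given as CPM after scaling between libraries by the trimmed mean of M values (TMM), and a fold without further mention is the ratio of group means on that scale. In bulk samples such as these, fewer cells of a type and less RNA per cell cannot be told apart.

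**Figure D1:**
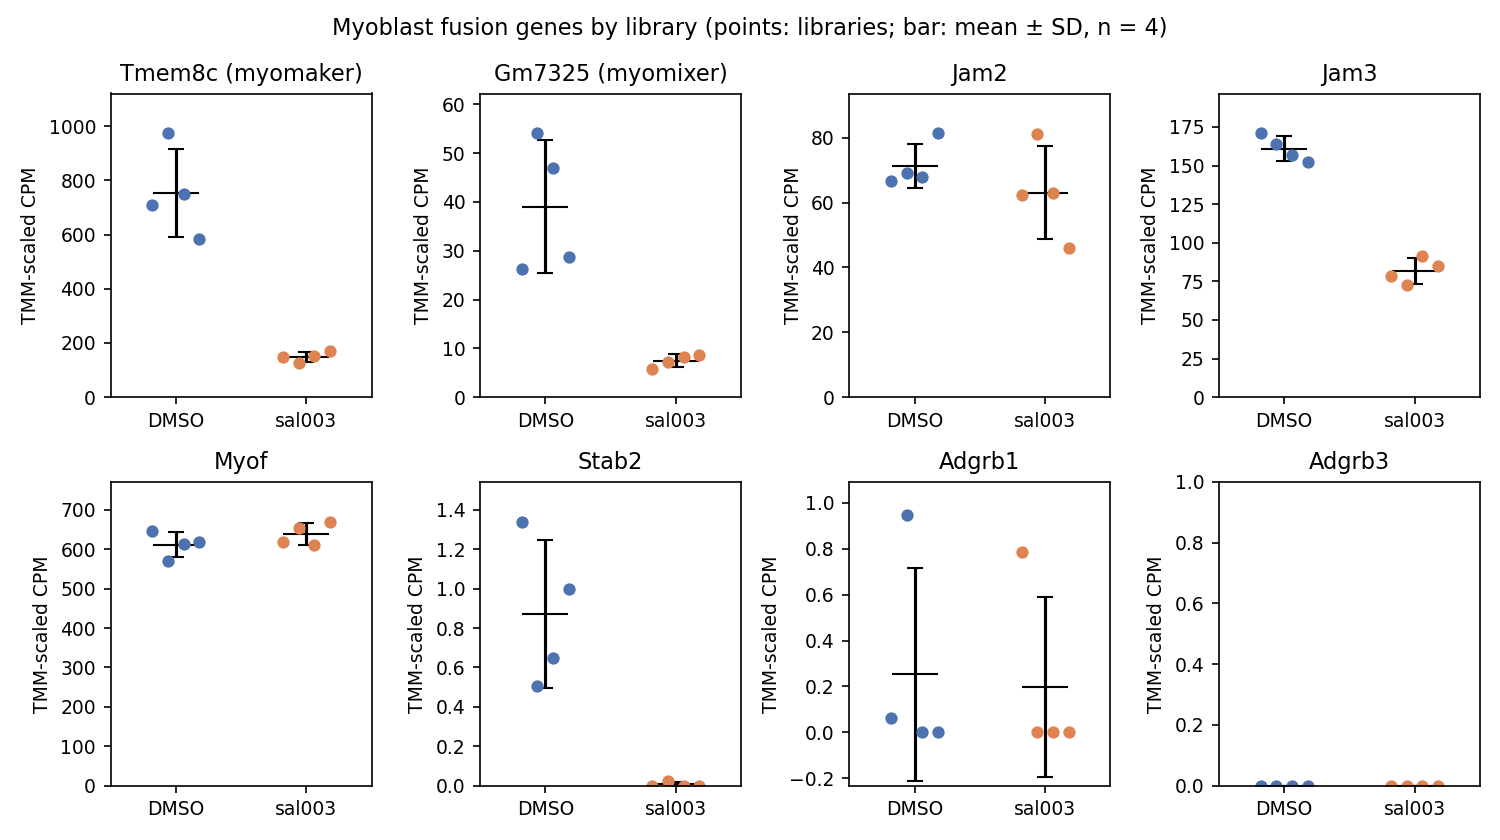
TMM-scaled CPM (vertical axes, starting at or below 0) of the 8 fusion genes in 4 DMSO and 4 sal003 libraries, with points for libraries, horizontal bars for means and whiskers for the SD. The groups do not overlap for Tmem8c, Gm7325, Jam3 and Stab2 and overlap for Jam2, Myof and Adgrb1, while Adgrb3 has no count.

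Tmem8c, which encodes myomaker (ENSMUSG00000009214, chromosome 2, 27061636 to 27072179, minus strand of mm10), stood at 707, 974, 751 and 584 CPM in DMSO replicates 1 to 4. In sal003 replicates 1 to 4 it stood at 149, 126, 153 and 171 CPM. Every sal003 library was below every DMSO library, and the highest of all was DMSO replicate 2. The group means were 754 ± 163 and 150 ± 18.8 CPM (SD, n = 4), a 5.04-fold difference. Its log2 fold change came to -2.33 ± 0.14 (SE; edgeR quasi-likelihood test, adjusted p = 3.85e-08), and -2.17 without DMSO replicate 2. Of the 15816 tested genes, 396 had a lower log2 fold change.

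Gm7325 encodes myomixer (ENSMUSG00000079471, chromosome 17, 45600971 to 45602102, minus strand of mm10). Its coding sequence is shown in full because it is that of a micropeptide. Of the 4 annotated coding transcripts, 3 share a reading frame of 84 codons before the stop, at chr17:45601417-45601671 on the minus strand, which takes 255 of the 1027 exon bases of the gene. It is given 5′ to 3′ from the GENCODE M21 transcripts of mm10, with the start and stop codons in capitals.
Mymx coding sequence: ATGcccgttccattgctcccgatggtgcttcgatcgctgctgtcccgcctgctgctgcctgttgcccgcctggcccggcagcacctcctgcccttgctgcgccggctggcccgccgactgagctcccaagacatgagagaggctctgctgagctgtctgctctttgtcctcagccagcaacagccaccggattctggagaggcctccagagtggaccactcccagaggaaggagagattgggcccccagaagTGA

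Gm7325 stood at 26.2, 54.1, 46.9 and 28.8 CPM in DMSO replicates 1 to 4 and at 5.69, 7.19, 8.17 and 8.7 CPM in sal003 replicates 1 to 4. The groups did not overlap. Within DMSO the values fell into a lower pair, replicates 1 and 4, and a higher pair, replicates 2 and 3, so that the SD was large beside the mean. The means were 39 ± 13.6 and 7.44 ± 1.32 CPM (SD, n = 4), a 5.25-fold difference with a log2 fold change of -2.39 ± 0.25 (SE; edgeR adjusted p = 3.24e-06). Without DMSO replicate 2 the log2 fold change was -2.18. The counts behind these values were 232 to 338 per sal003 library and 821 to 1826 per DMSO library.

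Whether the pair changed by the same amount was asked with the count ratio of the 2 genes in each library, which needs no scaling between libraries. The log2 ratio of Tmem8c to Gm7325 was 4.32 ± 0.32 in DMSO and 4.34 ± 0.26 in sal003 (SD, n = 4). The difference of 0.02 was smaller than the spread in either group (exact two-sided permutation test, p = 0.886). This is a statement on counts, not on molecules, since the 2 genes differ in exon length.

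The same test was made against Myog, which encodes the transcription factor myogenin, and against Myh3, the embryonic myosin heavy chain of new fibres. Myog itself was lower in sal003 (log2 fold change -1.60 ± 0.09, SE; edgeR adjusted p = 4.58e-09), and so was Myh3 (-2.38 ± 0.18; edgeR adjusted p = 2.99e-06). Relative to Myog, Tmem8c was lower in all 4 sal003 libraries than in any DMSO library, with log2 ratios of -1.99, -1.56, -1.73 and -2.02 in DMSO and -2.51, -2.65, -2.59 and -2.43 in sal003. The difference of -0.72 reached the smallest p that 4 libraries against 4 allow (exact permutation test, p = 0.0286), but not the threshold after adjustment over the 7 ratios computed (adjusted p = 0.0667).

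Relative to Myog, Gm7325 had a log2 ratio of -6.14 ± 0.50 in DMSO and -6.88 ± 0.22 in sal003, and the groups overlapped (exact permutation test, p = 0.0571, adjusted p = 0.100). Relative to Myh3, neither gene differed beyond the spread when all libraries were used. For Tmem8c the difference in log2 ratio was 0.04 (exact permutation test, p = 1) and became 0.35 without DMSO replicate 2. The DMSO ratios of Tmem8c to Myh3 that then remain, -3.98 to -3.80, were below all sal003 ratios, -3.61 to -3.46. For Gm7325 the difference was 0.02 (exact permutation test, p = 0.971) and became 0.38 without DMSO replicate 2, with the groups still overlapping. These p-values do not show that the ratios were the same.

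**Figure D2:**
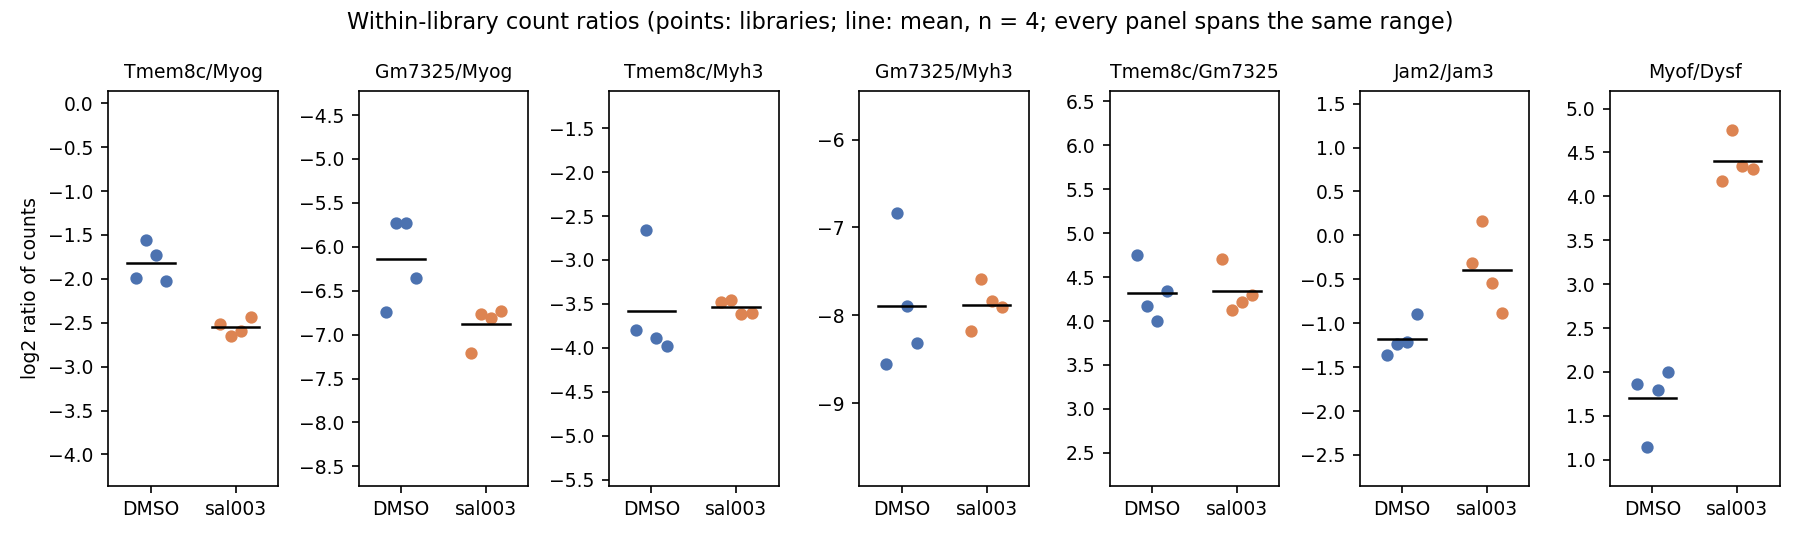
Log2 ratio of raw counts within each library (vertical axes, each spanning the same range) for 7 pairs of genes, with points for libraries and lines for the mean of 4. The sal003 points lie below all DMSO points for Tmem8c/Myog and above them for Jam2/Jam3 and Myof/Dysf, and the groups overlap in the other 4 panels.

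Jam2 and Jam3 encode junctional adhesion molecules of the immunoglobulin superfamily that bind each other across a cell contact. Jam3 (ENSMUSG00000031990, chromosome 9, 27097384 to 27155421, minus strand) stood at 171, 164, 157 and 152 CPM in DMSO replicates 1 to 4. In sal003 replicates 1 to 4 it stood at 78.2, 72.6, 91.7 and 84.7 CPM. All sal003 libraries were well below all DMSO libraries, and both groups were tight. This 1.97-fold difference had a log2 fold change of -0.98 ± 0.10 (SE; adjusted p = 2.56e-06 by edgeR). An antisense gene, Gm48796, shares 1159 exon bases with Jam3 in the M21 annotation and was not analysed here. Since no source used here gives the strand setting of the counting, reads from that gene cannot be told apart from those of Jam3.

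Jam2 (ENSMUSG00000053062, chromosome 16, 84774123 to 84825928, plus strand) stood at 66.6, 69.2, 67.9 and 81.4 CPM in DMSO replicates 1 to 4. In sal003 replicates 1 to 4 it stood at 62.4, 81, 62.9 and 45.9 CPM. Of the sal003 libraries 3 were below all DMSO libraries, while replicate 2 was level with the highest DMSO library. Jam2 had a log2 fold change of -0.18 ± 0.15 (SE; adjusted p = 0.485 by edgeR) and a 95% interval from -0.49 to 0.14. A fall as large as that of Jam3 thus lies outside the interval.

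The balance of the 2 partners was compared directly. The log2 count ratio of Jam2 to Jam3 was -1.36, -1.24, -1.21 and -0.90 in DMSO replicates 1 to 4. It was -0.32, 0.16, -0.54 and -0.88 in sal003 replicates 1 to 4. All sal003 ratios were above all DMSO ratios, although sal003 replicate 4 and DMSO replicate 4 were almost level. The difference of 0.78 had p = 0.0286 by the exact permutation test, the smallest it can give, and adjusted p = 0.0667.

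Myof encodes myoferlin, a calcium-binding ferlin of the plasma membrane that takes part in membrane fusion and repair (ENSMUSG00000048612, chromosome 19, 37899036 to 38043577, minus strand). It stood at 646, 570, 613 and 618 CPM in DMSO replicates 1 to 4 and at 619, 653, 611 and 670 CPM in sal003 replicates 1 to 4. The groups overlapped in part: sal003 replicates 2 and 4 were above all DMSO libraries, and DMSO replicate 2 was below all sal003 libraries. Myof had a log2 fold change of 0.06 ± 0.08 (SE; adjusted p = 0.657 by edgeR) and a 95% interval from -0.10 to 0.22. With 19206 to 27533 counts per library, depth was not what limited this comparison.

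The ferlin relative of Myof behaved otherwise in the same libraries. Dysf, which encodes dysferlin, the ferlin of sarcolemma repair in differentiated fibres, was measured at 178, 257, 176 and 155 CPM in DMSO replicates 1 to 4. In sal003 replicates 1 to 4 it stood at 34.3, 24.2, 29.9 and 33.8 CPM. Dysf thus had a log2 fold change of -2.65 ± 0.16 (SE; adjusted p = 1.87e-08 by edgeR). The log2 count ratio of Myof to Dysf was 1.70 ± 0.38 in DMSO and 4.40 ± 0.25 in sal003 (SD, n = 4). That is a 6.47-fold difference with no overlap, at the smallest p the exact permutation test can give (p = 0.0286, adjusted p = 0.0667), and the difference in log2 ratio was 2.69, or 2.51 without DMSO replicate 2.

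The remaining 3 genes encode receptors, and those encoded by Adgrb1 and Stab2 bind phosphatidylserine. Adgrb1 and Adgrb3 are adhesion G protein-coupled receptors that activate the GTPase RAC through ELMO and DOCK proteins, and stabilin-2, the product of Stab2, is a scavenger receptor best known from the endothelium of liver and spleen sinusoids.

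Stab2 (ENSMUSG00000035459, chromosome 10, 86841198 to 87008025, minus strand) had 42, 17, 22 and 38 counts in DMSO replicates 1 to 4. In sal003 replicates 1 to 4 it had 0, 1, 0 and 0 counts. The 119 DMSO counts against 1 sal003 count correspond to a DMSO to sal003 ratio of 140, with an exact 95% interval from 24.7 to 5590 that covers counting error only. Because small counts in the table are mostly even, the same interval was also computed from halved counts, and its lower bound was then 18.3. In DMSO the gene stood at 0.873 ± 0.376 CPM (SD, n = 4). By its mean over all 8 libraries it was below 96.3% of tested genes.

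The edgeR adjusted p of Stab2 was 0.0162. The gene passed the filter on low counts only through the DMSO libraries, where it is high, so that a tested Stab2 had to differ. It did not hold when DMSO replicate 1 was left out (adjusted p = 0.0551), nor without sal003 replicate 1 (0.0592), sal003 replicate 3 (0.0592) or sal003 replicate 4 (0.0506), while without DMSO replicate 2 it was 0.0117. With the replicate number as a block it was 0.0727.

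The 10 endothelial markers summed to 10.2 to 13.1 CPM in DMSO and 7.21 to 9.4 CPM in sal003, of which 5 were tested, 1 was lower and 0 were higher. Tie1, Emcn and Lyve1, a sinusoidal and lymphatic marker, had no count in any library. The marker that fell was Vwf, von Willebrand factor (8.33 ± 1.16 CPM in DMSO against 2.98 ± 0.592 CPM, SD, n = 4; edgeR adjusted p = 0.00416). The others did not pass or could not be tested, and their counts differed in both directions: Pecam1 had 230 counts in DMSO and 577 in sal003, Stab1 39 and 147, Tek 18 and 92, Cdh5 74 and 22, Flt1 62 and 17, and Kdr 0 and 4. The part of endothelial cells in the Stab2 result was not tested. The antisense gene Gm16268, which shares 141 exon bases with Stab2, had 65 counts in DMSO and 126 in sal003 and overlapping groups.

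Adgrb1 (ENSMUSG00000034730, chromosome 15, 74516195 to 74589465, plus strand) had 2, 32, 0 and 0 counts in DMSO replicates 1 to 4 and 32, 0, 0 and 0 counts in sal003 replicates 1 to 4. Almost all its counts thus came from 1 library of each group, and it was not tested. Adgrb3 (ENSMUSG00000033569, chromosome 1, 25067476 to 25829707, minus strand) had 0 counts in all 8 libraries, which allows up to 0.0712 to 0.0959 CPM per library (3 counts). No difference between the groups was detectable for either receptor at this depth.

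Levels of different genes can be set side by side only per length, here as CPM per kb of annotated exon. In DMSO, Tmem8c stood highest at 499 ± 108 CPM per kb (SD, n = 4), above every other fusion gene in every library. Jam3 at 50.3 ± 2.61, Myof at 48.5 ± 2.51 and Gm7325 at 38 ± 13.3 CPM per kb followed with overlapping ranges, and Jam2 came next at 11.8 ± 1.13. In sal003 Tmem8c was still first at 99.1 ± 12.5 CPM per kb, now followed by Myof at 50.7 ± 2.24, Jam3 at 25.6 ± 2.58, Jam2 at 10.4 ± 2.37 and Gm7325 at 7.24 ± 1.29, the last 2 with overlapping ranges. Stab2 was at 0.0997 CPM per kb in DMSO, and Adgrb1 at 0.0351 in DMSO and 0.0272 in sal003. Exon lengths are those of all annotated transcripts merged, so a gene whose long untranslated exons are unused here is placed too low.

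**Figure D3:**
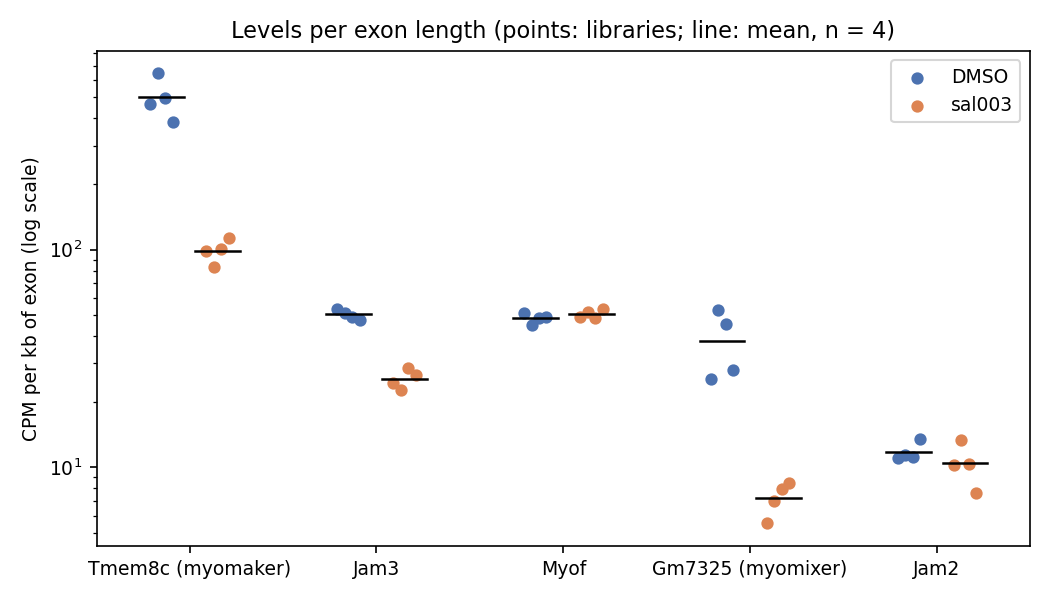
CPM per kb of exon (log scale) of the 5 fusion genes with more than a trace of counts, with DMSO libraries in blue, sal003 libraries in orange and lines at the means of 4. Tmem8c is highest in both groups, and Gm7325 falls from the range of Jam3 and Myof to that of Jam2.

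Relatives of the fusion genes were mostly at or near 0. Of 12 relatives matched, 4 were tested, among which 2 were lower and 0 higher. These were Dysf and Tmem8b, a relative of myomaker, which went from 12.6 ± 1.67 to 5.39 ± 1.67 CPM (SD, n = 4; log2 fold change -1.22 ± 0.28, SE; edgeR adjusted p = 0.00478). Tmem8 (-1.64 ± 0.98, adjusted p = 0.283) and the junctional adhesion molecule F11r (0.09 ± 1.25, adjusted p = 0.977) were tested at means near 1 CPM and did not pass. Igsf5, Esam, Fer1l4, Fer1l5, Fer1l6, Adgrb2 and Stab1 had traces of counts, and Otof had none.

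The wider fusion machinery was described with 69 further genes, grouped by role, of which 63 were tested. Of these, 20 were lower (31.7%, against 12.2% of all tested genes) and 8 higher (12.7%, against 10.6%). The median log2 fold change was -0.12, against 0 over all tested genes. Among the 20 was Cd36, which could pass the filter on low counts only through DMSO. The lists were chosen with earlier results of these data known, so the shares are a description only. In the list of adhesion and recognition at the contact, 10 of 21 were lower and 2 higher, with a median of -0.34. Cav3, caveolin-3 of muscle membranes, went from 74.2 ± 14.6 to 12.2 ± 1.6 CPM (SD, n = 4; edgeR adjusted p = 1.86e-08). The adhesion molecules Ncam1 (log2 fold change -0.98 ± 0.07, SE) and Cdh15, M-cadherin (-0.92 ± 0.10), and the tetraspanin Cd81 (-0.80 ± 0.11) were also lower. The 2 higher genes were Kirrel, a relative of the fly founder cell receptors (0.78 ± 0.09; edgeR adjusted p = 7.21e-06), and the integrin subunit Itga3 (0.68 ± 0.16; edgeR adjusted p = 0.00445).

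Genes of actin remodelling, through which the Adgrb receptors signal, moved both ways. Of 22 tested, 5 were lower and 4 higher, with a median of -0.01. Elmo1, the adaptor that binds these receptors, stood at 17.1, 15.9, 11.9 and 12.6 CPM in DMSO and 8.78, 5.15, 8.87 and 4.27 CPM in sal003 (adjusted p = 0.0119 by edgeR). Its partner Dock1, the exchange factor for RAC, stood at 46.3, 39.4, 45.6 and 36 CPM in DMSO and 59.1, 64.2, 58.4 and 64.8 CPM in sal003 (edgeR adjusted p = 0.00347). The groups did not overlap for either gene, and the 2 partners moved in opposite directions. Elmo2 (0.06 ± 0.15; adjusted p = 0.865) and Rac1 (0.08 ± 0.10; adjusted p = 0.689) did not pass the edgeR test.

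The exchange factor Trio had the lowest p of the actin list, going from 1030 ± 85.3 to 468 ± 32.7 CPM (SD, n = 4; edgeR adjusted p = 9e-08). The focal adhesion protein Vcl, vinculin (-0.83 ± 0.08, SE), and the GTPase Cdc42 (-0.50 ± 0.10) were lower too. Higher were Wipf1, which binds the Wiskott-Aldrich family of actin regulators (0.75 ± 0.16), and the GTPases Arf6 (0.42 ± 0.11) and Rhoa (0.25 ± 0.08; edgeR adjusted p = 0.0408). Arf6 lost its call without sal003 replicate 2 (adjusted p = 0.0564). Rhoa lost it in 5 of the 8 fits without 1 library: DMSO replicate 1 (0.0814) or 3 (0.0853), or sal003 replicate 1 (0.158), 2 (0.0841) or 4 (0.0948). It also lost it with the replicate block (0.0724) and with a filter of 10 CPM in 4 libraries (0.0564).

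Of 12 genes of membrane traffic and phosphatidylserine, 4 were lower and 2 higher, with a median of -0.26. Beside Dysf, the lower genes included Ano5, a membrane protein of the anoctamin family that is mutated in limb girdle muscular dystrophy (-1.65 ± 0.10, SE; edgeR adjusted p = 1.47e-08). Ehd1, a partner of myoferlin in membrane recycling, was lower as well (-0.41 ± 0.11; edgeR adjusted p = 0.0146, and 0.0506 without DMSO replicate 1). The scavenger receptor Cd36 had 76, 196, 118 and 135 counts in DMSO replicates 1 to 4 and 0, 10, 0 and 0 in sal003 (edgeR adjusted p = 0.00263). Like Stab2, it had at most traces in sal003 and could pass the filter only through DMSO. The phosphatidylserine-binding annexins Anxa1 (0.58 ± 0.09; edgeR adjusted p = 0.000225) and Anxa5 (0.65 ± 0.14; edgeR adjusted p = 0.0026) were higher.

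Among 12 secreted signals and receptors 8 were tested, 1 was lower and 0 were higher, with a median of 0.02. The lower gene was Fst, follistatin, a secreted antagonist of myostatin and activin that promotes fusion. It stood at 230, 271, 258 and 251 CPM in DMSO and 33, 25.9, 30.1 and 32.5 CPM in sal003 (log2 fold change -3.05 ± 0.11, SE; edgeR adjusted p = 9.41e-11). Il4, the cytokine that recruits myoblasts to growing myotubes, had no count in any library. Of the C1ql family, which binds Adgrb3, C1ql1 had 66 counts in DMSO and 227 in sal003 and C1ql3 had 174 and 66, and neither passed the test. C1ql4 had 16 counts in DMSO and 0 in sal003, and C1ql2 had none.

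**Figure D4:**
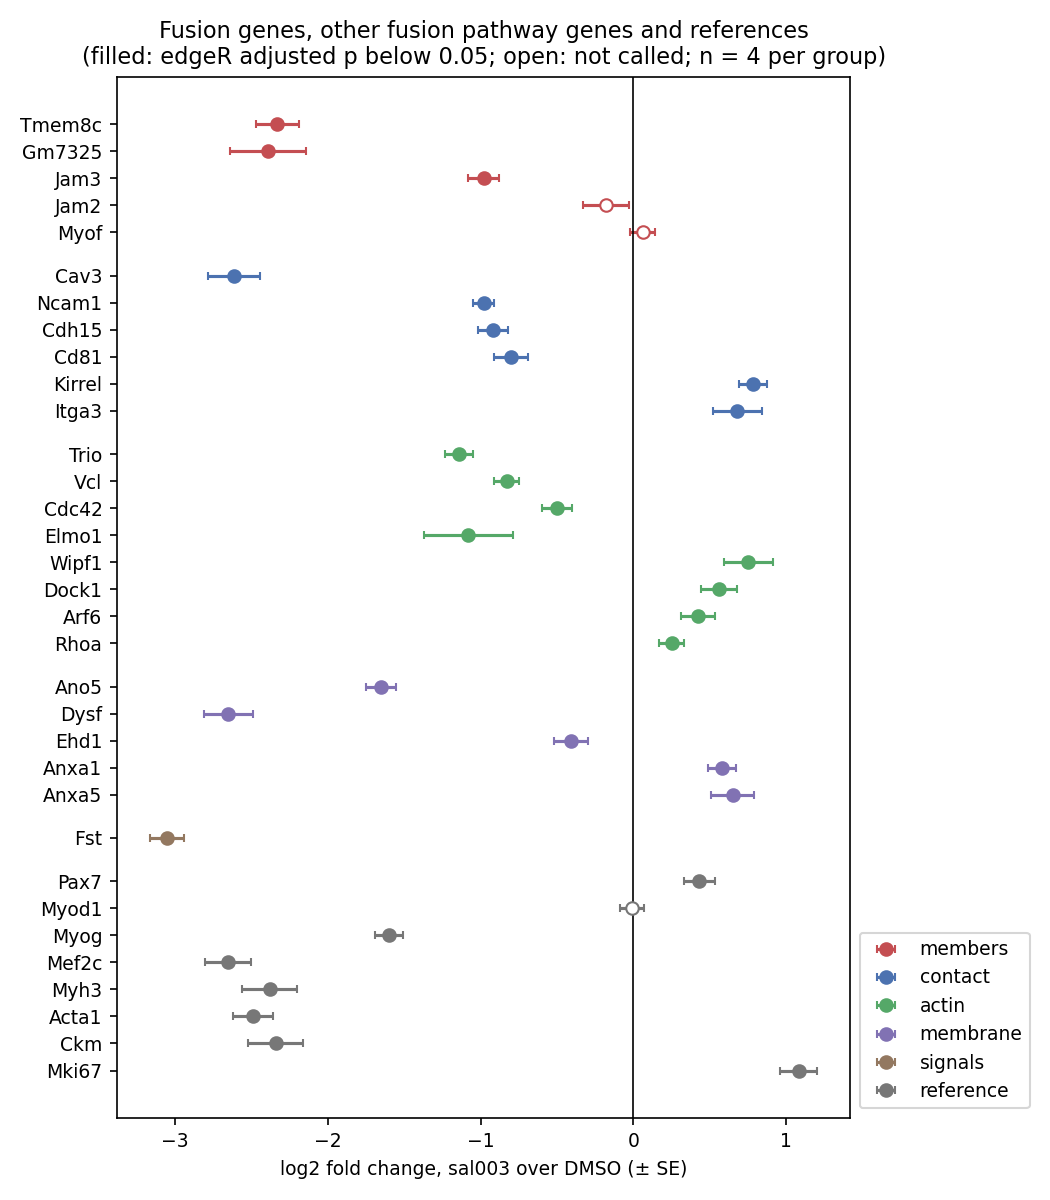
Log2 fold changes of sal003 over DMSO (horizontal axis, points, with whiskers for the SE) for 5 fusion genes, other fusion pathway genes and reference genes, filled where edgeR called a change. Tmem8c and Gm7325 lie near Cav3, Dysf, Mef2c, Myh3, Acta1 and Ckm, while Jam2, Myof and Myod1 lie close to 0 with open symbols.

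Among the myogenic reference genes, values spanned both directions. Mef2c, a transcription factor of muscle differentiation, had a log2 fold change of -2.65 ± 0.15 (SE), skeletal actin Acta1 of -2.49 ± 0.13 and muscle creatine kinase Ckm of -2.34 ± 0.18. Myod1, which encodes the determination factor MyoD, did not pass the test (-0.01 ± 0.08; edgeR adjusted p = 0.975). Pax7, the marker of satellite cells, was higher (0.43 ± 0.10; edgeR adjusted p = 0.00539), and so was the proliferation marker Mki67 (1.08 ± 0.12; edgeR adjusted p = 9.28e-06).

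The genes whose log2 CPM followed each fusion gene most closely over the 8 libraries were listed by Pearson correlation. This is a description that is driven largely by the difference between the groups. Genes with predicted or clone names were left out of the search, so Gm7325 could not be listed beside another fusion gene. Tmem8c was followed by Flnc (r = 0.999), the muscle filamin, Xirp1 (0.999), Fam171a2 (0.998), the M-band gene Myom3 (0.998) and Trio (0.998). Of these, Fam171a2 was also close to Tmem8c in size of change, at a log2 fold change of -2.34 ± 0.19 (SE). Jam3 was followed by the junctophilin Jph2, Klhl30 and the receptor phosphatase Ptprf (each 0.996), and by Bin1 and the muscle sodium channel Scn4a (each 0.995). Gm7325 was followed by Med13l (0.993), Klf5 (0.992), Adck2 (0.991), Itga6 (0.991) and Map1a (0.990). Each of these changed less than Gm7325 (log2 fold change -2.39), from -0.37 for Med13l to -1.89 for Klf5.

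For the 2 fusion genes without a called change the nearest genes were less close. Jam2 was followed by Fam172a (0.952), Bcdin3d (0.932), Chst8 (0.930), Mrpl24 (0.918) and Cdnf (0.908), and Myof by Arl6ip4 (0.960), Plk3 (0.952), Rnpepl1 (0.949), Rbbp9 (0.945) and Pdcd2 (0.943). All 10 of these genes had overlapping groups, and correlations of this size over 8 libraries among so many genes are no finding.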

How the data were processed

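RNA was measured in 8 libraries, 4 per group. Per the labels' protocols, stranded libraries were made from total RNA after depletion of ribosomal and mitochondrial transcripts. The tools named in the submitters' processing notes are featureCounts 1.4.4, STAR 2.3.0e and Trimmomatic 0.32, with the mm10 build. The authors deposited raw counts per gene, summed over exons. The sources used here do not give the settings for strand and multi-mapping reads. Coordinates and exon lengths come from GENCODE M21 (mm10), which held 96.6% of the identifiers.

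Counts were analysed in R 4.3.3 with edgeR 4.0.16 (filterByExpr, minimum count 10 and total 15, TMM, robust quasi-likelihood fit on condition alone, two-sided, Benjamini-Hochberg over 15816 genes, threshold 0.05). The SE is the log2 fold change over the square root of F. Count ratios within libraries (counts + 0.5) were compared by exact permutation. All replicate pairs differed by at least 24.3 chi-square units per degree of freedom, so none was treated as a duplicate. The fit was also run on simulated counts drawn from the model it assumes. That could not show how it copes with mostly even small counts or with a library that stands apart.

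Alternatives were other scalings and filters, DESeq2 1.42.0, limma-voom 3.58.1, a replicate block, each library left out, halved counts and a test against a 1.5-fold change. The genes named are the 8 fusion genes, their relatives and the reference genes. Up to 4 genes called per direction in each pathway list, in order of p, are named too. So are the 5 genes most correlated with each fusion gene of at least 20 CPM, predicted and clone names excepted. Elmo2, Rac1, Il4, the C1ql genes and the cell type markers were named after their values were seen. The fusion genes and the lists were chosen with earlier results of these data known.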

Additional observations from a re-analysis of the deposited data

Results flagged for a closer look

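In all, 30 sets of 4 values were examined (8 fusion genes and 7 ratios in 2 groups). By Dixon's criterion, 5 held a library far from the other 3. Chance meets the criterion in about 1 of 20 sets of continuous values. Adgrb1 and Stab2 in sal003, each at 0 in all but 1 library, had to meet it, and Adgrb3, at 0 throughout, could not. Adgrb1 reached 0.949 CPM in DMSO replicate 2 and 0.784 CPM in sal003 replicate 1, each from 32 counts, against at most 2 counts elsewhere. Stab2 in sal003 was at 0.0237 CPM in replicate 2, from its single count, and at 0 in the other 3. The log2 ratio of Gm7325 to Myog was -7.21 in sal003 replicate 1, below the other 3 at -6.81 to -6.73. The log2 ratio of Tmem8c to Myh3 was -2.66 in DMSO replicate 2, above the other 3 at -3.98 to -3.80. That library had the highest Tmem8c and the lowest Myh3 of the DMSO group.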

How the results depend on the processing

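The calls on Tmem8c, Gm7325 and Jam3, and the absence of a call on Jam2 and Myof, were the same under all 17 alternatives each. Tested against a 1.5-fold change, 266 genes were higher and 737 lower of all tested, and among the pathway genes 0 were higher and 9 lower. Leaving out 1 library in turn gave 3 to 4 fusion genes lower, 16 to 19 pathway genes lower and 6 to 11 higher, and log2 fold changes of -2.42 to -2.17 for Tmem8c, -2.53 to -2.18 for Gm7325 and -1.03 to -0.92 for Jam3. Stab2 failed the filter with halved counts and with 10 CPM in 4 libraries, so it had no value there. The replicate numbers did not pair the libraries (correlation of deviations -0.005 to 0.035). With the replicate block 3 fusion genes were lower, and 1660 genes were higher and 1770 lower of all tested. Ratios of libraries paired by number cannot pass the threshold in an exact test (smallest p 0.125) and are given as values. Ratios with 1 library left out are also given as values, without a p-value. Between fits without 1 library, the log2 ratio differences ran from -0.78 to -0.63 for Tmem8c/Myog, 0.60 to 0.94 for Jam2/Jam3 and 2.51 to 2.79 for Myof/Dysf. Depth limits what can be said of Stab2, Adgrb1 and Adgrb3.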
